A study of Mus musculus with 88 samples.

Results

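The bed nucleus of the stria terminalis (BNST) of B6 mice classed as susceptible after chronic social defeat stress (CSDS) was compared with the BNST of B6 mice classed as resilient. All defeated BNST libraries of the strain C57BL/6Crl were taken, 5 from susceptible and 5 from resilient mice, which is 10 of the 88 libraries of the series and 10 of the 28 BNST libraries. The mice were males of 8 weeks. Each had been defeated repeatedly by larger, aggressive CD1 males, was housed alone from the end of CSDS, and was dissected 6 to 8 days after the last defeat. Phenotype was assigned from the social interaction ratio of each mouse relative to same-strain controls. Both groups went through the same stress protocol and differed in their later social behavior, which is a class assigned after the stress and not a treatment. Contact was shortened where aggression was severe, so the exposure can have differed between mice. Values of 5 undefeated B6 controls, also housed alone, and of the same contrast in D2 mice (strain DBA/2Crl, 5 susceptible and 3 resilient) are given beside the results. Each library came from a single mouse, and the spread between mice is the error of every comparison. In the edgeR fit this spread was estimated over all 28 BNST libraries, those of control and D2 mice included.

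The BNST is a small group of mostly GABAergic nuclei in the basal forebrain that links the amygdala and hippocampus to the hypothalamus and brainstem. It is rich in neuropeptides such as corticotropin-releasing hormone, enkephalin, dynorphin and somatostatin, and it is known for its role in sustained anxiety and in the endocrine response to stress. It lies next to the striatum, the septum, the preoptic area and the lateral ventricle, and large fiber tracts pass through it, so a dissected piece also holds oligodendrocytes and can hold cells of neighboring regions.

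The libraries held 13650148 to 18274709 counted reads in resilient and 11825757 to 25793910 in susceptible mice. Levels are CPM, read counts scaled to a common library size, here with TMM factors (trimmed mean of M values). The GABA neuron genes Gad1, Gad2 and Slc32a1 were high in all 10 mice, with Gad1 at 325 to 513 CPM in resilient and 432 to 578 CPM in susceptible mice. Nkx2-1, a transcription factor of the ventral forebrain, was at 2.1 to 13.5 CPM. Some libraries stood apart from the others. In a principal component analysis of the 10 mice, susceptible mouse 3 was alone at one end of the first component (30.4% of the variance), and it had the most reads, the lowest TMM factor (0.656) and the largest share of reads on mitochondrial ribosomal RNA (25.3%, against 11.0 to 18.4% in the other 9 mice). The second component (15.6%) was positive in resilient mice 2, 3 and 5 alone, which also had excitatory neuron genes at high levels, as described below. Several results move with these 4 libraries, and values without them are given beside those results. Fits without resilient mice 2, 3 and 5 keep only resilient mice 1 and 4 against the 5 susceptible mice. These 2 mice shared a library set and a sequencing set, labeled 1+3. No susceptible mouse had that combined label, though all had a 1 or a 3 in another combination. Phenotype and sequencing set cannot be told apart in those fits, and counts from them rest on fewer mice. The share of reads on mitochondrially encoded protein genes was 5.74 ± 1.57% (SD, n = 5) in resilient and 7.88 ± 1.26% (SD, n = 5) in susceptible mice (two-sided exact permutation test, p = 0.0397, 0.198 after adjustment over 5 library measures). The other 4 measures, which were the total, the TMM factor, the ribosomal RNA share and the number of genes detected, gave p of 0.270 to 0.794 in the same exact test.

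Of 17515 genes tested, 1 differed between susceptible and resilient mice at an adjusted p under 0.05 (0.00571% of genes, edgeR quasi-likelihood test). This gene was Muc16, which encodes a large membrane-bound mucin of epithelial and mesothelial surfaces, known in its shed form as CA125. It lies on the minus strand of chromosome 9 (GRCm38, chr9:18495455-18674530). Its level was 0.140, 0, 0.388, 0.264 and 0.217 CPM in resilient mice 1 to 5, and 3.26, 2.135, 0.651, 2.22 and 2.31 CPM in susceptible mice 1 to 5. All susceptible mice lay above all resilient mice, and the lowest of them, mouse 3, was nearer to the resilient group than to the other 4 susceptible mice. The 5 controls lay between the groups, at 0.423 to 0.597 CPM. These levels rest on few reads, 0 to 5 per resilient library and 11 to 47 per susceptible library. Muc16 rose by 3.36 ± 0.54 on the log2 scale (SE, adjusted p = 0.0234, edgeR). The log2 fold change stayed between 2.85 and 3.84 in 26 alternative fits, but the adjusted p passed the threshold in 10 of them and not in the other 16, with a range from 5.52e-05 to 1. It was 0.00340 without susceptible mouse 3, and it passed the threshold without resilient mouse 3 or 4 but not when any 1 of the other 7 mice was left out. In bulk tissue, fewer cells of a type and less RNA per cell cannot be told apart. Muc16 overlaps a short gene annotated on the opposite strand, Gm25295, and no source used here gives the strand setting of the counting.

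Other mucin genes were also at higher levels in most susceptible mice. Of a list of 19 mucin, mesothelial and simple epithelial genes, 5 had enough reads to be tested, and Muc16 itself is among them. All 5 had a positive log2 fold change, with a median of 1.58 that includes Muc16. The filter keeps a low gene where it is high in enough libraries, so these 5 do not stand for the 19. Muc4, a membrane-bound mucin with EGF-like domains, was at 0.768, 1.58, 0.47, 0.527 and 1.08 CPM in resilient mice 1 to 5, and at 3.26, 7.83, 0.118, 2.01 and 7.71 CPM in susceptible mice 1 to 5. Susceptible mouse 3 had the lowest Muc4 level of all 10 mice, and the other 4 lay above every resilient mouse (log2 fold change 2.21 ± 0.70, adjusted p = 0.346, edgeR). Muc6, a secreted gel-forming mucin, was similar, with 0.533 CPM in susceptible mouse 3, 1.87 to 2.77 CPM in the other 4 and 0.396 to 1.01 CPM in resilient mice. Muc1, a membrane-bound mucin of simple epithelia, was at 1.23 to 2.38 CPM in resilient and 2.36 to 5.78 CPM in susceptible mice. Muc6 and Muc1 were named after their values had been seen.

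At an unadjusted p under 0.05, 706 genes (4.03%) were higher and 617 genes (3.52%) were lower in susceptible mice, 1323 in all. None of these except Muc16 passed the adjusted threshold, and the next smallest adjusted p was 0.0964, shared by Klhl6, a gene of B cell and endothelial signaling (log2 fold change 1.52 ± 0.29), and the long noncoding RNA 1500015L24Rik (2.21 ± 0.42), both named after their values had been seen. The split into higher and lower genes depends on the scaling, since 53.4% of the 1323 genes were higher with TMM factors and 23.7% of 1183 genes without them. Over all genes tested, the median moved from 0.02 to -0.08 between these scalings. The shares of all genes were 2.82% higher and 1.96% lower without resilient mice 2, 3 and 5, and 7.52% higher and 8.54% lower without susceptible mouse 3. The unadjusted count is therefore used below only to describe gene groups, and each group's count is to be read against these shares.

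Complete separation of the groups was rare. All 5 susceptible mice were above all 5 resilient mice for 104 genes (0.594%) and below them for 97 genes (0.554%). The genes described next were chosen by rank among the separated genes with a mean of at least 2 CPM, 12 in each direction. For all 24 the groups do not overlap, which is how they were chosen, and none passed the adjusted threshold in edgeR. DESeq2 called 9 of them, S100a11, Lcp2, Zfp418, Toe1, Sstr2, Pamr1, Chrm3, Xkr7 and Ap3m2.

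The 12 higher genes included several known from immune cells. Lcp2 encodes SLP-76, an adaptor of antigen and platelet receptor signaling, and lies on chromosome 11 (chr11:34046920-34092295). Its level was 4.75, 3.5, 4.27, 5.27 and 4.77 CPM in resilient and 6.86, 7.03, 8.52, 8.53 and 8.17 CPM in susceptible mice (log2 fold change 0.79 ± 0.16, adjusted p = 0.143, edgeR). Controls were at 4.85 to 6.70 CPM, between the groups or within the resilient range. The calcium-binding protein gene S100a11 (chr3:93520488-93526287) was at 0.388 to 2.05 CPM in resilient and 2.40 to 8.17 CPM in susceptible mice (1.68 ± 0.44), and controls overlapped both groups. Oasl2, an interferon-induced gene, was at 3.42 to 4.54 CPM in resilient and 5.56 to 7.55 CPM in susceptible mice (0.70 ± 0.21). Naip6, a gene of the Naip family of inflammasome receptors, had a log2 fold change of 1.5 ± 0.43, but it has near-identical copies and its count is uncertain.

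The other higher genes have varied roles. The zinc finger gene Zfp418 (chr7:7171330-7183562) was at 11.4, 8.58, 12.6, 11.7 and 11.4 CPM in resilient and 18.4, 20.1, 13.0, 19.0 and 18.7 CPM in susceptible mice (0.68 ± 0.15). Susceptible mouse 3 lay just above the resilient mice, and the other 4 well above them. Rps6, a protein of the small ribosomal subunit, was at 28.2 to 31.7 CPM in resilient and 36.8 to 56.8 CPM in susceptible mice (0.60 ± 0.17), though reads of its processed copies could be shared. The RNA helicase gene Ddx10 was at 22.8 to 33.6 CPM in resilient and 40.03 to 61.8 CPM in susceptible mice (0.60 ± 0.19). Aldehyde oxidase Aox1, the RNA-processing nuclease gene Toe1, the carnosine methyltransferase gene Carnmt1, the small membrane protein gene Smim27 and Bmp4, a ligand of the BMP pathway that is also found in early oligodendrocytes, had log2 fold changes of 0.65 to 0.83. Lcp2, Toe1, Smim27 and Bmp4 overlap a gene annotated on the opposite strand.

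**Figure D1:**
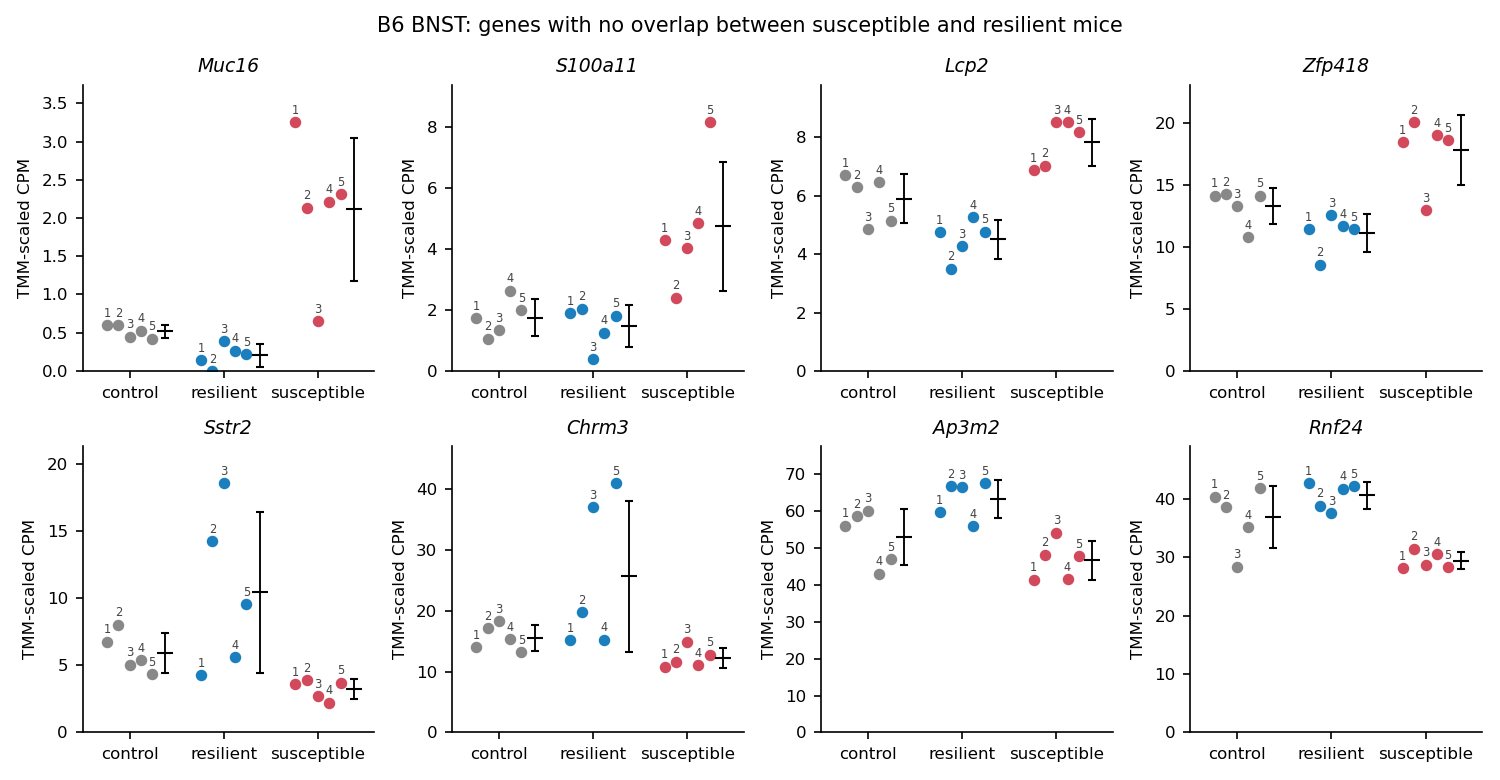
Levels of 8 genes in CPM with TMM factors, 1 panel per gene with a linear axis, for the 5 control, 5 resilient and 5 susceptible B6 mice, each point a mouse marked with its number and the bars the mean ± SD. The resilient and susceptible points do not overlap in any panel, and susceptible mouse 3 is the lowest of its group for Muc16 and Zfp418.

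The 12 lower genes included receptors of neuropeptides and acetylcholine. Sstr2, a receptor of somatostatin and cortistatin, was at 4.26, 14.3, 18.6, 5.6 and 9.54 CPM in resilient and 3.61, 3.91, 2.72, 2.22 and 3.70 CPM in susceptible mice (log2 fold change -1.69 ± 0.38, adjusted p = 0.207, edgeR). Resilient mice 2, 3 and 5 were highest, and resilient mice 1 and 4 lay just above the susceptible range and within or below the control range of 4.35 to 8.03 CPM. The muscarinic receptor gene Chrm3 was at 15.2, 19.8, 37.1, 15.3 and 41.0 CPM in resilient and 10.82 to 14.9 CPM in susceptible mice (-1.07 ± 0.23), with controls at 13.2 to 18.3 CPM. Pamr1, a gene for a secreted protease-like protein (-1.68 ± 0.41), Xkr7 (-1.10 ± 0.28) and Gfpt2, an enzyme of the hexosamine pathway (-1.03 ± 0.29), were also highest in resilient mice 3 or 5. The thyrotropin-releasing hormone receptor gene Trhr2 (-0.84 ± 0.32) and Sprn, which encodes the prion-like protein Shadoo (-0.63 ± 0.20), were highest in resilient mouse 3. For 7 of the 12 lower genes, resilient mice 2, 3 and 5 were the 3 highest of the 10 mice, as they were for 2.37% of all genes tested. Without these 3 mice the log2 fold change was -0.62 for Sstr2, -0.32 for Chrm3, -0.83 for Pamr1, -0.42 for Xkr7, -0.48 for Gfpt2, -0.51 for Trhr2 and -0.29 for Sprn, so each kept its direction at a smaller size.

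The lower genes also included subunits of adaptor complexes, which sort the cargo of vesicles. Ap3m2, a subunit of the neuronal adaptor complex AP-3, was at 59.7, 66.9, 66.5, 56.0 and 67.5 CPM in resilient and 41.5, 48.2, 54.2, 41.6 and 47.7 CPM in susceptible mice (-0.44 ± 0.12, adjusted p = 0.301, edgeR). Ap5s1, a subunit of the adaptor complex AP-5, was at 7.149 to 11.0 CPM in resilient and 3.56 to 6.45 CPM in susceptible mice (-0.90 ± 0.25), and the controls were at 7.151 to 9.09 CPM, all above the susceptible mice. Rnf24, which encodes a membrane-bound RING finger protein, was at 37.5 to 42.7 CPM in resilient and 28.2 to 31.5 CPM in susceptible mice (-0.46 ± 0.13). Casp2, a caspase of stress-induced cell death, was at 9.37 to 13.1 CPM in resilient, 6.85 to 8.94 CPM in susceptible and 9.39 to 14.8 CPM in control mice (-0.57 ± 0.16). The neuronal gene Fam135b had a log2 fold change of -0.57 ± 0.18. Without resilient mice 2, 3 and 5 the log2 fold change was -0.32 for Ap3m2, -1.06 for Ap5s1, -0.53 for Rnf24, -0.61 for Casp2 and -0.53 for Fam135b. Sstr2, Chrm3, Trhr2, Sprn and Rnf24 overlap a gene annotated on the opposite strand.

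Excitatory neuron genes had large negative log2 fold changes, and these came from 3 resilient mice. Neurod2, a transcription factor of cortical and hippocampal excitatory neurons, was at 0.628, 20.3, 68.1, 1.2 and 80.1 CPM in resilient mice 1 to 5, at 0.134 to 1.39 CPM in susceptible mice, and at 3.98, 9.55, 0.894, 1.2 and 0.907 CPM in control mice 1 to 5 (log2 fold change -5.58 ± 1.24, adjusted p = 0.207, edgeR). Tbr1, a factor of deep-layer cortical neurons, was at 3.63, 58.5, 174, 6.26 and 141 CPM in resilient and 5.07 to 12.1 CPM in susceptible mice (-3.42 ± 0.83). Slc17a7, the vesicular glutamate transporter of cortical neurons, was at 3.84, 145, 514, 4.35 and 322 CPM in resilient and 1.69 to 22.1 CPM in susceptible mice, and reached 110 CPM in control mouse 2 (named after its values had been seen). Resilient mice 1 and 4 lay within the susceptible range for Slc17a7 and Neurod2, and resilient mice 2, 3 and 5 lay far above it for all 3 genes. Without these 3 mice the log2 fold change was -0.37 for Neurod2 and 0.52 for Tbr1.

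Of 12 tested genes of the excitatory neuron and cortical list, 8 were lower in susceptible mice at an unadjusted p under 0.05 and none was higher, with a median log2 fold change of -2.56. Among the 8 were Neurod2, Tbr1, Neurod6, Slc17a7, Fezf2, Nrn1 and Neurod1. The summed level of the list was 1361, 3054, 3727, 1409 and 3648 CPM in resilient mice and 1207 to 2823 CPM in susceptible mice, where mouse 3 was the highest. Neurod2 and Tbr1 were at 0.947 and 12.1 CPM in susceptible mouse 3, so other members made up most of its sum. When resilient mice 2, 3 and 5 were left out, the median was 0.39 and none of the 12 was lower. Resilient mice 2, 3 and 5 were the 3 highest of the 10 mice for 204 of the 617 lower genes (33.1%). Over all genes tested they were so for 415 (2.37%). The lower genes were chosen for being high in resilient mice, so this share is a description. Without these 3 mice, the fit compared the 5 susceptible mice with resilient mice 1 and 4 alone. In that fit no gene passed the adjusted threshold in edgeR, and 837 genes had an unadjusted p under 0.05. Of these, 374 were among the 1323 with the same direction (213 higher and 161 lower). The part of the dissection in these values was not tested. Markers of the striatum, the thalamus and the hypothalamus had no member at an unadjusted p under 0.05 in either direction, of 18, 10 and 6 tested. The summed level of the striatal list was 13400 CPM in susceptible mouse 3, 4753 to 6022 CPM in the other susceptible and 5281 to 8945 CPM in resilient mice, and its median of 0.04 became -0.40 without susceptible mouse 3, when 1 member was lower.

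**Figure D2:**
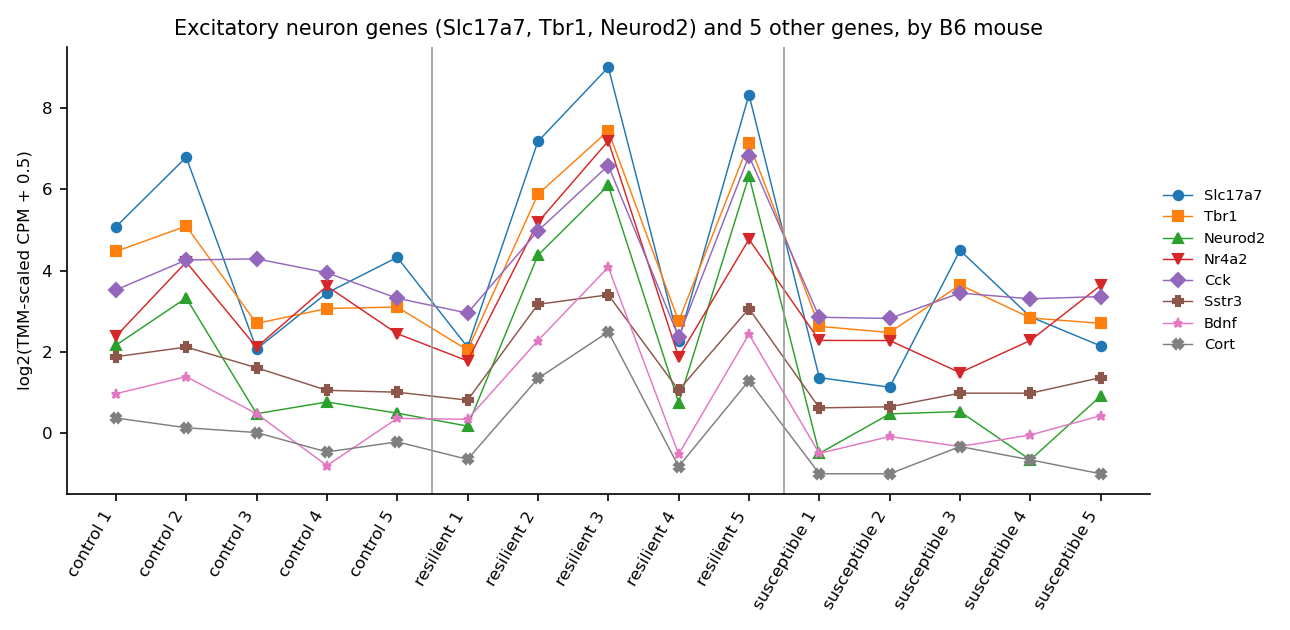
Levels of 8 genes as log2(CPM + 0.5) with TMM factors in each of the 15 B6 mice, 1 colored line and symbol per gene, with lines that join mice only to guide the eye. All 8 genes are high together in resilient mice 2, 3 and 5, while resilient mice 1 and 4 lie near the susceptible mice.

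Several neuronal gene groups with lower members moved with these 3 mice. Among 20 neuropeptide precursors 5 were lower at an unadjusted p under 0.05 and none higher, with a median of -0.21 that became 0.29 without resilient mice 2, 3 and 5, when none was lower. Cort, the precursor of cortistatin, a peptide of cortical interneurons, was at 0.140, 2.05, 5.13, 0.0659 and 1.95 CPM in resilient mice, and it had no read in susceptible mice 1, 2 and 5. Vip, a peptide of cortical interneurons, was at 0.489, 4.55, 3.19, 0.725 and 5.5 CPM in resilient and 0.296 to 1.34 CPM in susceptible mice. The others were Cck, Adcyap1 and Cartpt, and Cck, named after its values had been seen, was at 7.26, 31.1, 95.8, 4.68 and 113 CPM in resilient and 6.58 to 10.4 CPM in susceptible mice. For Cort, Vip and Cck, resilient mice 1 and 4 were within or near the susceptible range, and without resilient mice 2, 3 and 5 the log2 fold change was -0.09 for Cort and 0.27 for Vip.

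Among 28 neuropeptide and hormone receptors, 6 were lower (Sstr2, Sstr3, Cckbr, Sstr1, Sstr4 and Vipr1) and 2 higher (Tacr1 and Avpr1a), and 1 was lower and none higher without the 3 mice. Sstr3, another somatostatin receptor, was at 1.26, 8.51, 10.102, 1.58 and 7.88 CPM in resilient and 1.04 to 2.08 CPM in susceptible mice. Of the 6 lower receptors, 5 bind somatostatin or cholecystokinin. Among 32 potassium and HCN channels, which set the excitability of neurons, 10 were lower and none higher, and none was lower without the 3 mice. Kcnh7 was at 80.1, 111, 192, 59.8 and 218 CPM in resilient and 59.3 to 84.2 CPM in susceptible mice (-0.92 ± 0.27), and the acid-sensitive leak channel gene Kcnk9 was at 4.89 to 10.6 CPM and 2.1 to 4.92 CPM (-1.15 ± 0.36). Without the 3 mice the log2 fold change was 0.0037 for Sstr3, -0.0028 for Kcnh7 and -0.79 for Kcnk9.

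Receptors of monoamines and glutamate had lower members and no higher ones. Of 25 monoamine receptors 4 were lower (Adrb1, Adra1a, Htr3a and Htr2a), and 1 without the 3 mice, while the median was -0.25 in both fits. The adrenergic receptor gene Adra1a was at 16.7 to 26.2 CPM in resilient and 15.05 to 16.3 CPM in susceptible mice (-0.51 ± 0.20), so the groups were separated, and the controls were at 16.4 to 28.7 CPM. Without the 3 mice the log2 fold change was -0.39 for Adra1a and -0.26 for Adrb1. Of 24 glutamate receptor genes 2 were lower, Grin2a (-0.45 ± 0.18) and Grm2, which reached 38.04 CPM in resilient mouse 5 and was at 2.55 to 3.93 CPM in susceptible mice. Without the 3 mice these were at -0.0022 and -0.15, and without susceptible mouse 3 the list had 5 lower members. None of 16 GABA receptor genes was higher or lower. Of 21 immediate early genes, which neurons induce with activity, 2 were lower. They were Bdnf and Nr4a2, which is also a marker of deep cortical and claustral neurons. Nr4a2 was at 2.93, 36.0, 146, 3.16 and 26.8 CPM in resilient and 2.31 to 11.9 CPM in susceptible mice, and its log2 fold change of -2.98 ± 0.95 became 0.83 without resilient mice 2, 3 and 5, when Bdnf was at -0.10. The summed level of the immediate early genes was 2786 CPM in susceptible mouse 3 and 630 to 1208 CPM in the other susceptible mice. Without susceptible mouse 3, 7 of the 21 were lower and the median was -0.84, against -0.29 with it.

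Genes of GABA neurons, the main cell type of the BNST, had few members at an unadjusted p under 0.05. Of 16 forebrain GABA neuron transcription factors, Lhx6, a factor of neurons born in the medial ganglionic eminence, was higher at an unadjusted p under 0.05 (22.9 to 45.6 CPM in resilient, 42.5 to 67.3 CPM in susceptible mice) and Dlx2 was lower (7.26 to 19.2 CPM and 8.10 to 11.9 CPM, and a log2 fold change of -0.02 without resilient mice 2, 3 and 5). The median of this list was 0.25, and 13 of the 16 had a positive log2 fold change. Of 13 GABA neuron markers, Lhx6 alone was higher and none lower, 9 were positive and the median was 0.10.

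The neuropeptide and stress hormone genes for which the BNST is known overlapped between the groups. Penk, the precursor of enkephalins, was the most abundant of these, at 659 to 1461 CPM in resilient and 742 to 1380 CPM in susceptible mice (log2 fold change 0.12 ± 0.38). Sst was at 52.6 to 147 CPM in resilient and 71.3 to 117 CPM in susceptible mice (0.09 ± 0.30), and Pdyn, the precursor of dynorphins, at 34.8 to 106 CPM and 34.4 to 68.1 CPM (-0.35 ± 0.37). Crh, corticotropin-releasing hormone, was low, at 0.977, 5.21, 5.83, 4.75 and 1.59 CPM in resilient and 1.8, 2.85, 0.355, 2.08 and 1.85 CPM in susceptible mice. The Crh difference of -1.05 ± 0.76 (adjusted p = 0.793, edgeR) was not detectable at this depth and spread. The glucocorticoid receptor gene Nr3c1 was at 84.6 to 111 CPM and 73.6 to 102 CPM (-0.10 ± 0.16). Fkbp5, a co-chaperone induced by glucocorticoids, was at 18.9 to 26.1 CPM in resilient mice and at 16.6, 23.4, 46.2, 21.8 and 25.1 CPM in susceptible mice, where mouse 3 alone was high (0.29 ± 0.22). Fos, an early marker of neuronal activity, was at 1.40 to 8.18 CPM and 0.154 to 5.16 CPM (-0.65 ± 0.53). Of 20 glucocorticoid receptor and glucocorticoid-induced genes and 6 sex steroid receptor genes, none was higher or lower at an unadjusted p under 0.05, and the median of the former was 0.01 with TMM factors and -0.11 without them. Without susceptible mouse 3 it was -0.12, and 2 of the 20 were lower.

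Myelin genes were on the higher side in susceptible mice, with a large spread. Mature oligodendrocytes wrap axons with myelin, and their structural genes are among the most abundant of fiber-rich tissue. All 29 tested mature oligodendrocyte and myelin genes had a positive log2 fold change, with a median of 0.56 against 0.02 for all genes, and 6 of them (among these Cldn11, Ermn, Opalin, Mobp and Mal) were higher at an unadjusted p under 0.05. These genes come from 1 cell type and vary together, so 29 genes are not 29 independent observations. Their summed level was 5394, 5701, 4412, 7402 and 8946 CPM in resilient mice and 10710, 6690, 8851, 13890 and 10320 CPM in susceptible mice. Susceptible mice 1, 4 and 5 lay above all resilient mice, while mice 2 and 3 lay within the resilient range. Controls overlapped both groups, at 3643 to 10150 CPM.

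Mobp, an abundant basic protein of central myelin, was at 685, 603, 425, 813 and 876 CPM in resilient and 1425, 740, 865, 1498 and 1073 CPM in susceptible mice (log2 fold change 0.72 ± 0.33, adjusted p = 0.636, edgeR). Susceptible mice 2 and 3 lay within the resilient range and the other 3 above it. Cldn11, the claudin of myelin tight junctions, was at 112 to 239 CPM and 177 to 383 CPM (0.69 ± 0.28). Opalin was at 14.8 to 33.2 CPM and 21.7 to 52.6 CPM (0.74 ± 0.33), Mal, a membrane proteolipid of myelin named after its values had been seen, at 119 to 270.0 CPM and 155 to 477 CPM (0.65 ± 0.31), and Ermn, a cytoskeletal protein of the myelin sheath, at 45.4 to 90.5 CPM and 57.8 to 180 CPM (0.85 ± 0.37). Mbp, myelin basic protein, was at 1640 to 3550 CPM and 1888 to 4435 CPM (0.59 ± 0.39). None of these passed the adjusted threshold. Without resilient mice 2, 3 and 5 the median of the 29 genes was 0.39 and none was higher at an unadjusted p under 0.05. Without susceptible mouse 3 the median was 0.57 and 8 were higher.

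**Figure D3:**
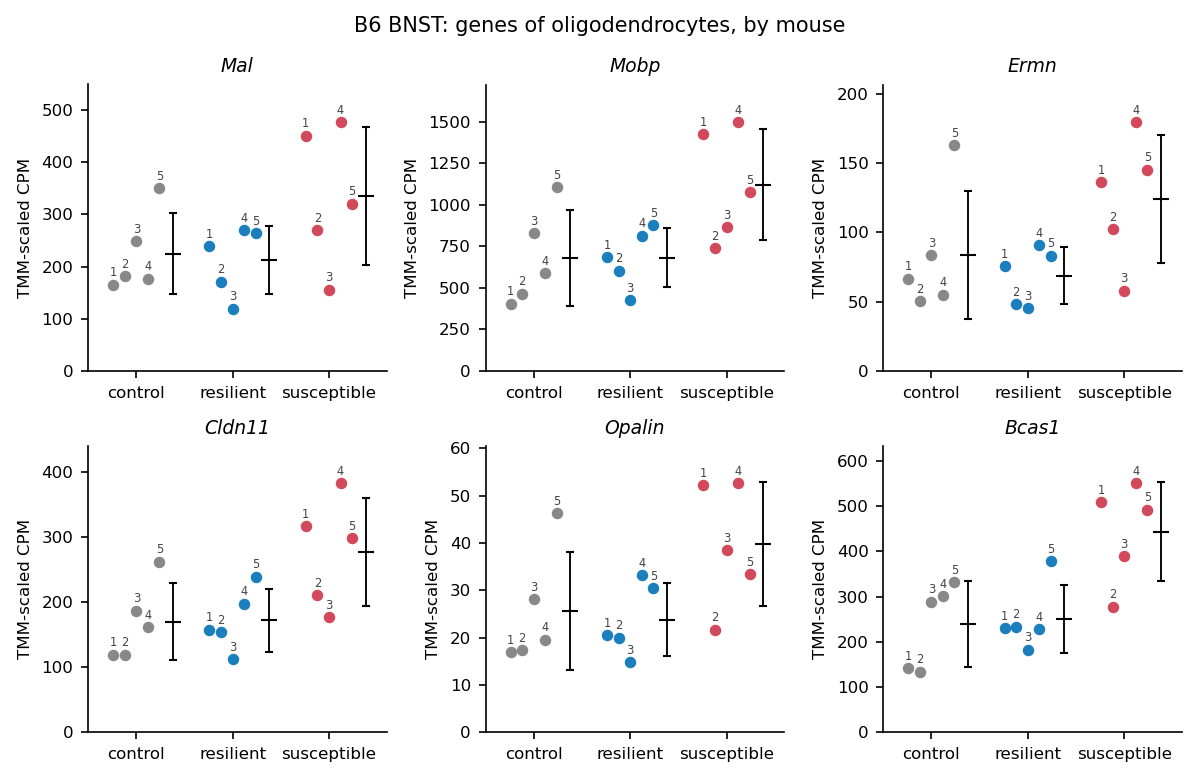
Levels of 6 oligodendrocyte genes in CPM with TMM factors, 1 panel per gene with a linear axis, for the 5 control, 5 resilient and 5 susceptible B6 mice, each point a mouse marked with its number and the bars the mean ± SD. Susceptible mice 1 and 4 lie above every resilient mouse in all 6 panels, and the controls overlap both groups.

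Genes of earlier stages of the lineage had smaller medians. Of 9 premyelinating oligodendrocyte genes 3 were higher (Bmp4, Bcas1 and Itpr2), with a median of 0.41, and Bcas1, which marks cells that have begun to myelinate, was at 183 to 379 CPM in resilient and 278 to 550 CPM in susceptible mice (0.82 ± 0.34). Of 14 oligodendrocyte precursor genes all had a positive log2 fold change, with a median of 0.25, though these 14 are not independent observations either. Only 1 was higher, the lineage factor Olig2 (37.8 to 58.7 CPM and 47.1 to 89.0 CPM, 0.50 ± 0.25). Of 19 genes of cholesterol synthesis, a pathway that myelin formation uses heavily, 2 were lower and none higher, with a median of -0.20. In the fit without susceptible mouse 3, 3 precursor genes were higher and 4 cholesterol genes lower.

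Microglia genes were also on the higher side. All 18 tested microglia markers had a positive log2 fold change, with a median of 0.29. It was 0.06 without resilient mice 2, 3 and 5 and 0.12 without TMM factors. The 18 genes come from 1 cell type and are not 18 independent observations. At an unadjusted p under 0.05, 4 were higher, namely Itgam, Ctss, Cx3cr1 and P2ry12. Itgam, which encodes the complement receptor subunit CD11b, was at 7.96, 7.92, 5.21, 4.55 and 4.7 CPM in resilient and 11.4, 11.3, 7.34, 11.9 and 8.86 CPM in susceptible mice (0.74 ± 0.21, adjusted p = 0.334, edgeR). Only susceptible mouse 3 fell within the resilient range. The lysosomal protease gene Ctss was at 19.96 to 34.3 CPM and 30.9 to 51.2 CPM (0.53 ± 0.16), and the homeostatic receptors Cx3cr1 and P2ry12 had log2 fold changes of 0.32 ± 0.15 and 0.34 ± 0.16.

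Immune effector genes had few members in either direction. Of 20 interferon-stimulated genes, Oasl2 was higher and Stat2 lower, and without susceptible mouse 3, 3 were higher and 1 lower. Stat2, a subunit of the interferon-responsive transcription factor, was at 22.3 to 25.2 CPM in resilient and 18.03 to 19.6 CPM in susceptible mice, with no overlap (-0.34 ± 0.15). Of 10 antigen presentation genes, B2m, the light chain of MHC class I, was higher (56.6 to 88.0 CPM and 62.8 to 133 CPM, 0.56 ± 0.21). The median of that list was 0.09 with TMM factors and -0.01 without them.

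Markers of the other cell types of the tissue gave small counts. Of 17 astrocyte markers 2 were higher, the bicarbonate transporter gene Slc4a4 (381 to 498 CPM and 492 to 574 CPM, 0.29 ± 0.11) and S100b (60.1 to 88.5 CPM and 63.3 to 121 CPM, 0.50 ± 0.24). Of 17 endothelial markers 2 were higher (Ly6c1 and Emcn), with a median of 0.08 that was -0.002 without TMM factors. With susceptible mouse 3 left out, 6 astrocyte and 6 endothelial markers were higher and 1 endothelial marker was lower. Of 10 pericyte and smooth muscle markers 2 were higher, Abcc9 and Kcnj8, the subunits of the KATP channel of mural cells. Of 12 meningeal fibroblast markers 3 were higher (Dcn, Aldh1a2 and Foxc1), and Dcn, a proteoglycan of connective tissue, was at 3.96 to 9.35 CPM in resilient and 7.52 to 12.6 CPM in susceptible mice (0.63 ± 0.24). Without susceptible mouse 3, 1 meningeal marker was higher and 2 were lower. Of 5 blood markers, the alpha globin genes Hba-a1 and Hba-a2 were lower, and these are near-identical copies whose reads cannot be separated with certainty. Of 8 choroid plexus and 13 ependymal genes, which mark the wall of the ventricle, none was higher or lower.

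Genes of energy metabolism and protein synthesis had small positive medians that depended on the scaling and on single libraries. Of 79 nuclear genes of the respiratory chain 7 were higher and none lower, with a median of 0.16, and of 77 cytosolic ribosomal protein genes 3 were higher (Rps6, Rpl22 and Rpl5; 3.9%, close to the 4.03% of all genes), with a median of 0.17. Without TMM factors both medians were 0.04. Without susceptible mouse 3 they were -0.0085 (9 higher and 3 lower) and -0.03 (5 higher and 5 lower). Ndufa2, a subunit of complex I, was at 11.9, 13.0, 15.4, 9.30 and 14.8 CPM in resilient and 23.3, 19.6, 17.0, 14.9 and 22.7 CPM in susceptible mice (0.60 ± 0.16, adjusted p = 0.301, edgeR). Atp5h, a subunit of ATP synthase, had a log2 fold change of 0.52 ± 0.19. The 7 tested mitochondrially encoded protein genes had a median of 0.51 and none was higher at an unadjusted p under 0.05. Their summed level was 35820 to 88870 CPM in resilient mice, where mice 1 and 4 were lowest, and 76830 to 116800 CPM in susceptible mice. Without resilient mice 2, 3 and 5 the medians were 0.41 for the nuclear, 0.44 for the ribosomal and 1.29 for the mitochondrially encoded genes, and 16, 12 and 4 members were higher. Within the first library set, where the resilient mice were mice 3 and 5, the nuclear and ribosomal medians were -0.12 and -0.08. The 3 lists moved away from 0 when the 3 mice were left out, while the cortical, neuropeptide, peptide receptor and potassium channel lists moved towards it or past it. Of 15 heat shock genes 2 were higher, Hspe1 and Hspd1, the partners of the mitochondrial chaperonin, which lie head to head on opposite strands. Of the other genes named here, Muc4, Bcas1, Ermn, Mbp, B2m, Ndufa2, Penk, Fkbp5, Kcnh7, Bdnf, Grm2, Tef, S100b and Abcc9 are among those that overlap a gene on the opposite strand, and Itgam, Lhx6, Ctss and Casp2 among those that overlap a gene on their own strand. Of 16 circadian clock genes 1 was lower, the output factor Tef (186 to 259 CPM and 163 to 208 CPM, -0.33 ± 0.13), and 3 were lower without susceptible mouse 3. None of 14 perineuronal net genes or 40 replication-dependent histone genes was higher or lower. The summed level of the histone genes was 795 CPM in susceptible mouse 3, 264 to 324 CPM in the other susceptible and 282 to 432 CPM in resilient mice, and without susceptible mouse 3 their median moved from 0.06 to -0.63 and 6 were lower.

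**Figure D4:**
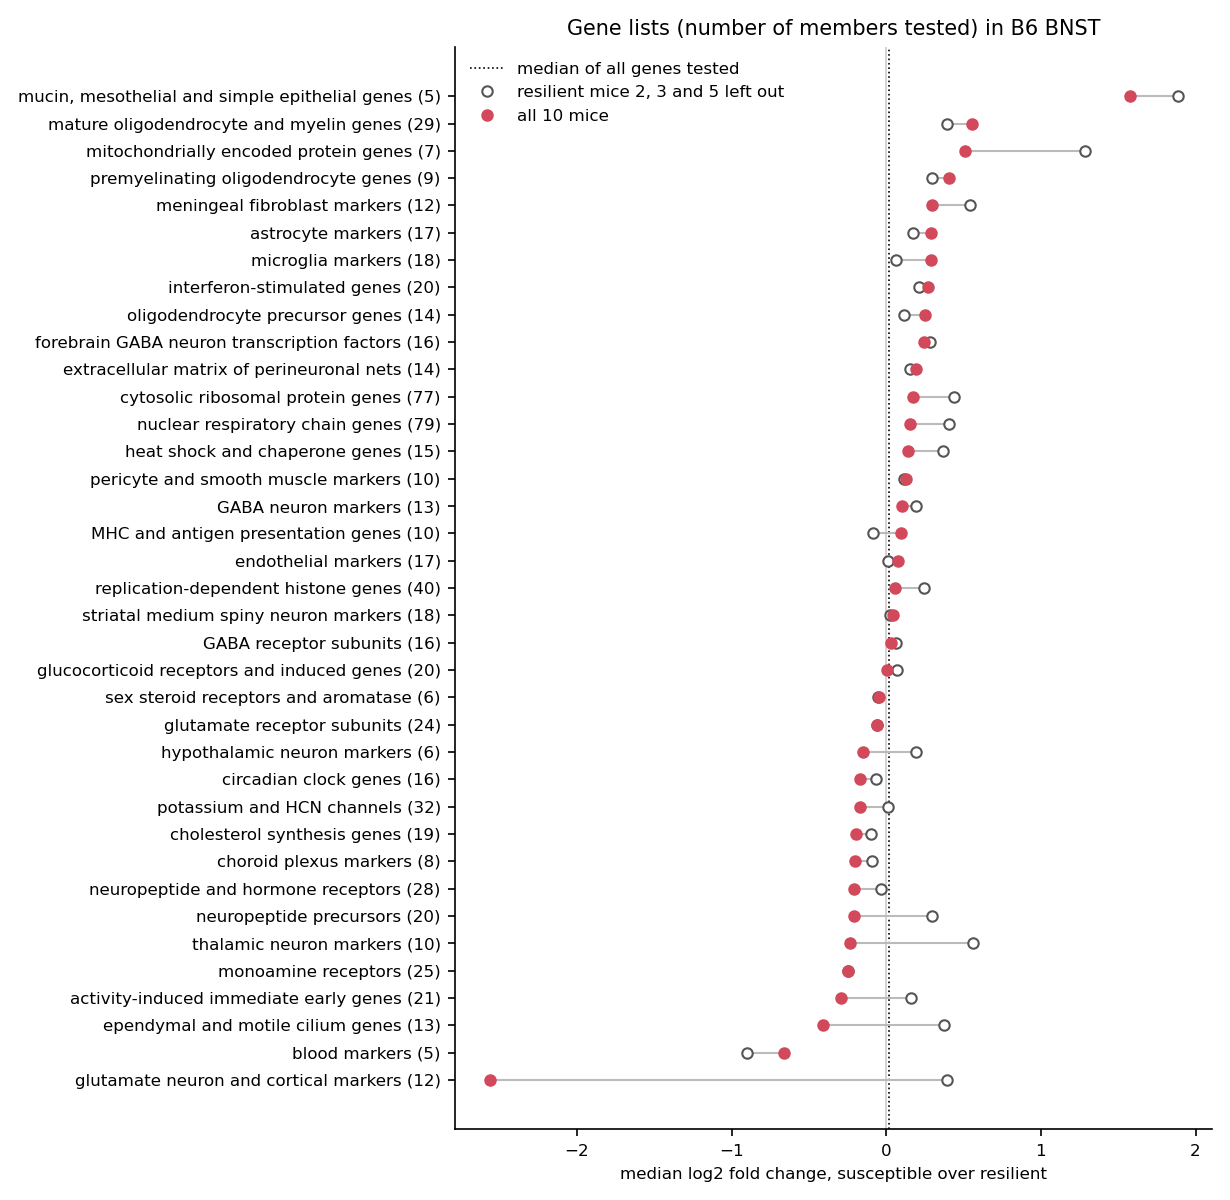
Median log2 fold change, susceptible over resilient, of each of the 37 gene lists with the number of members tested in brackets, for all 10 mice (filled points) and without resilient mice 2, 3 and 5 (open points), with a dotted line at the median of all genes. The cortical list moves from -2.56 to 0.39, whereas the myelin list and the mucin list, which includes Muc16, are positive in both. Both fits hold the same 5 susceptible mice, and the mucin list holds only the 5 of 19 members that passed the filter.

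For most of the genes at an unadjusted p under 0.05, the control mean was nearer to the resilient than to the susceptible mean. Of the 706 genes higher in susceptible mice, the control mean lay between the 2 group means for 536, beyond the resilient mean for 148 and beyond the susceptible mean for 22, and it was nearer to the susceptible mean for 201 (28.5%). Of the 617 lower genes the control mean lay between the group means for 495, beyond the resilient mean for 112 and beyond the susceptible mean for 10, and it was nearer to the susceptible mean for 202 (32.7%). These counts are a description and were not tested, and the same share over all genes was not counted. Among the lower genes with the control mean nearer to the susceptible mean were Tbr1, Neurod2, Chrm3, Kcnh7, Bdnf and Nr4a2. For Mobp and Mal the controls spread over both groups.

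The same contrast in D2 mice had other values. In D2, 230 genes (1.31%) had an unadjusted p under 0.05 and none passed the adjusted threshold in edgeR. The D2 mice share no mouse with the B6 mice. Of the 706 genes higher in susceptible B6 mice, 313 (44.3%) were also positive in D2, where 50.5% of all genes were positive, and of the 617 lower genes 210 (34.0%) were also negative, against 49.5% of all genes. At an unadjusted p under 0.05 in both strains, 5 genes had the same direction and 20 the opposite. The difference between the strains was tested itself, and no gene passed (0% at an adjusted p under 0.05 by edgeR, 824 genes at an unadjusted p under 0.05, smallest adjusted p = 0.811), whereas DESeq2 called 3 genes, Neurod2, Bdnf and 1500015L24Rik. Neurod2 had a log2 fold change of 2.53 ± 1.40 in D2 and Bdnf of 2.137 ± 0.97, both opposite in sign to B6. D2 susceptible mice 1, 2, 4 and 5 had the sequencing labels 2, 1, 1 and 1. The D2 resilient mice had the labels 1+3, 2+4 and 1+4, and of these only 2+4 was shared, with D2 susceptible mouse 3. Phenotype and sequencing set can therefore hardly be told apart in D2. The part of sequencing in the D2 values and in the opposite signs was not tested. The median of the cortical list in D2 was 0.94, and that of the myelin list was 0.01. Muc16 was 0.82 ± 0.56 in D2. Of the 24 separated genes, 8 of the 12 higher and 3 of the 12 lower had the same sign in D2.

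**Figure D5:**
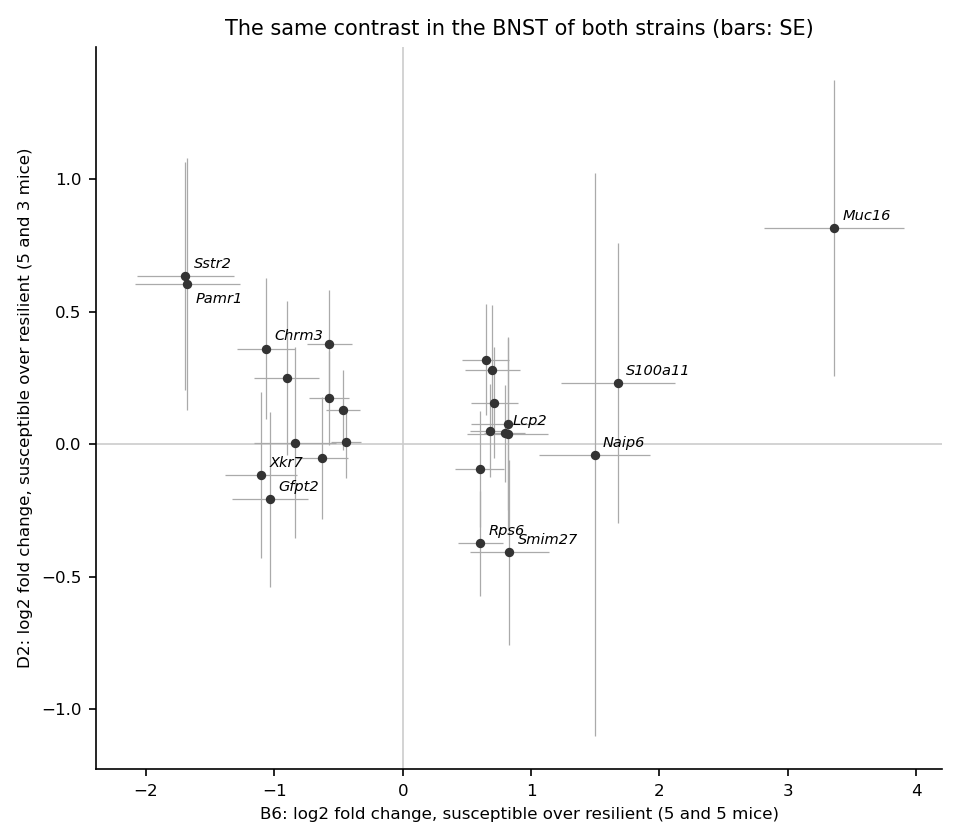
Log2 fold change, susceptible over resilient, in B6 (horizontal, 5 and 5 mice) and D2 (vertical, 5 and 3 mice) BNST for Muc16 and the 24 genes without overlap in B6, with bars of 1 SE. The B6 values were used to choose these genes, and in D2 11 of the 24 have the same sign as in B6.

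Other B6 mice were measured in the medial prefrontal cortex (mPFC, 6 susceptible and 6 resilient) and the ventral hippocampus (vHPC, 3 and 8). Their deposited values are log2 CPM that were adjusted for batches, so they are set beside the BNST values without a test. Some resilient mice carry the same mouse ID in the mPFC and the vHPC, so these regions are not independent sets of mice. The median log2 difference of the myelin list, susceptible minus resilient, was -0.65 in the mPFC and -0.39 in the vHPC, against 0.56 in the BNST. Mobp was at -0.83 ± 0.21 in the mPFC and -0.73 ± 0.13 in the vHPC, and Ermn at -0.83 ± 0.19 and -0.47 ± 0.13. Sstr2 was at -0.09 ± 0.15 and 0.12 ± 0.08, and Lcp2 at -0.03 ± 0.12 and 0.26 ± 0.13. Muc16 and Muc4 are not in the tables of these 2 regions used here.

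Library preparation and sequencing were not balanced in the same way. The first library set held 2 resilient and 2 susceptible mice and the second 3 and 3, and the log2 fold change of Muc16 was 2.85 within the first and 3.84 within the second. The median of the myelin list was 0.28 and 0.71, and that of the cortical list -4.0 and -0.79. The resilient mice of the first set were mice 3 and 5, and those of the second were mice 1, 2 and 4. Both resilient mice of the first set were thus among the 3 with high excitatory neuron genes. A difference between the sets therefore cannot be told apart from these mice. A sequencing set here is a combined label, such as 1+3 or 2+4. Of these combinations, only 1 held both groups, with 1 resilient and 2 susceptible mice. Combination and phenotype can therefore hardly be told apart. Each single number in the labels occurred in both groups, and a fit with a term per number was not run. Resilient mice 1 and 4 had the label 1+3, which none of the other 8 compared mice had. Other compared mice, among them all susceptible mice, had a 1 or a 3 in another combination. With the combined label as a covariate, the count at an unadjusted p under 0.05 was 480, and no gene passed the adjusted threshold in edgeR.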

How the data were processed

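The authors removed adapters and PCR duplicates from the single-end reads, aligned them to GRCm38 and counted those on exons, and the deposited BNST values are whole-number counts for 48795 genes. The deposited mPFC and vHPC values are log2 CPM after a filter, voom and a ComBat adjustment for batches by the authors. Gene positions and symbols came from GENCODE M21 on the same build.

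In the BNST, 17515 genes reached 1 CPM in 6 or more of the 28 libraries. After TMM scaling, a robust quasi-likelihood model of edgeR was fitted with a mean per group. Tests were two-sided with Benjamini-Hochberg adjustment at a threshold of 0.05, and the SE was derived from the F statistic. The mPFC and vHPC values were fitted with limma. Library measures were compared with exact permutation tests over the 252 splits of the 10 mice. The fit was checked on simulated data.

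Named genes were every gene past the adjusted threshold, the 12 genes in each direction with the highest −log10(p) × log2 fold change among separated genes with a mean of at least 2 CPM, up to 2 members of each of 37 lists with the smallest p at an unadjusted p under 0.05, and 12 stress and myelin genes. Some of these genes are not reported here. The comparison, the genes and the lists were chosen with earlier results of these data known. Precision was taken from the spread between mice, and genes under 1 CPM rest on few reads. Alternatives were DESeq2, voom, other scalings and filters, fewer libraries in the fit, batch covariates and leaving out each mouse. Leaving out resilient mice 2, 3 and 5, alone or with susceptible mouse 3, and fits within library sets were added after seeing the data. R 4.3.3, edgeR 4.0.16, limma 3.58.1, DESeq2 1.42.0, Python 3.11.15, pandas 2.3.3 and NumPy 2.4.6 were used.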

Additional observations from a re-analysis of the deposited data

Results flagged for a closer look

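In 11 of 160 groups of 5 B6 mice, the highest or lowest mouse lay far from the other 4, where chance flags about 1 in 20 groups. In resilient mice, Zfp418 was low in mouse 2 (8.58 CPM, the others 11.4 to 12.6 CPM), Ddx10 was low in mouse 4 (22.8 CPM, the others 31.1 to 33.6 CPM), and Abcc9 was high in mouse 1 (17.7 CPM, the others 11.0 to 12.1 CPM).

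Susceptible mouse 3 was the lone mouse for 5 genes, each time the lowest. Its levels were 0.651 CPM for Muc16 (the others 2.135 to 3.26 CPM), 13.0 CPM for Zfp418 (18.4 to 20.1 CPM), 2.54 CPM for Gfpt2 (4.5 to 5.52 CPM), 56.2 CPM for Hspd1 (75.5 to 80.9 CPM) and 0.355 CPM for Crh (1.8 to 2.85 CPM). Susceptible mouse 2 was high for Ddx10 (61.8 CPM, the others 40.03 to 44.5 CPM) and Sprn (49.7 CPM, the others 42.4 to 43.9 CPM). Susceptible mouse 5 was low for Fos (0.154 CPM, the others 2.62 to 5.16 CPM).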

How the results depend on the processing

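The count of genes past the adjusted threshold was 1 in edgeR, 42 in DESeq2 (14 higher and 28 lower), and 0 in limma voom with library set, with a mean of at least 2 CPM as the filter (Muc16 was then not tested), with only the 10 compared or only the 15 B6 libraries, with a term for sequencing set or for mouse ID prefix, without resilient mice 2, 3 and 5, and without these and susceptible mouse 3. It ranged from 0 to 9 when each mouse was left out, with 9 without susceptible mouse 3 and 2 without resilient mouse 4 (Muc16 and Arhgef25). The count at an unadjusted p under 0.05, 1323 in the reported fit, was 3416 of 40096 genes without a filter, 480 with sequencing set, 837 without resilient mice 2, 3 and 5 (1496 without susceptible mouse 3 as well), and 981 to 2813 when each mouse was left out. The strain by phenotype difference had 3 genes in DESeq2 and 0 to 0 when each mouse was left out, as in edgeR.

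The log2 fold change reversed, without resilient mice 2, 3 and 5, for Vip (0.27), Sstr3 (0.0037), Tbr1 (0.52) and Nr4a2 (0.83). With susceptible mouse 3 left out as well it was 0.48 for Vip, 0.0271 for Dlx2, 0.24 for Tbr1, 0.0255 for Bdnf, 1.03 for Nr4a2, 0.0532 for Kcnh7 and -0.0722 for Fkbp5. Within the first library set Hba-a2 was 0.0692, Hba-a1 0.13 and Pdyn 0.56, and with sequencing set Pdyn was 0.23. When each mouse was left out Penk ranged from -0.0338 to 0.348, Sst from -0.0632 to 0.301 and Fkbp5 from -0.0040 to 0.421, and Penk and Fkbp5 were negative without susceptible mouse 3 and Sst without resilient mouse 1 or 4. The cause was not tested for any of these. Of 78 named genes, Muc16 alone lost its call, in 16 fits, and 14 gained one in DESeq2 (Ap3m2, Bdnf, Chrm3, Cort, Lcp2, Neurod2, Pamr1, S100a11, Sstr2, Sstr3, Tbr1, Toe1, Xkr7 and Zfp418), of which Chrm3 also did so within the first library set and Zfp418 without susceptible mouse 3. No paired analysis was possible because every mouse had 1 phenotype and nothing in the sources used here links a susceptible to a resilient mouse. Levels under 1 CPM rest on few reads.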
